A study of Rattus norvegicus with 12 samples.

Results

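The 10 genes described here are Nfe2l2, which encodes the transcription factor NRF2, and 9 genes of antioxidant defence, most of them known NRF2 targets (Hmox1, Nqo1, Gclc, Gclm, Txnrd1, Srxn1, Sod1, Sod2 and Cat). They were chosen by gene symbol from the 18483 genes of the series, and each symbol matched 1 gene. Their mRNA was measured by RNA-seq in neonatal rat ventricular myocytes (NRVMs), primary heart muscle cells isolated from Sprague-Dawley pups and purified on a Percoll gradient. All cultures were transfected, either with a control siRNA (siNeg) or with 1 siRNA sequence that targets Slc39a2, a plasma membrane zinc importer of the ZIP family (siSlc39a2). Phenylephrine (PE) was the hypertrophic stimulus. It is an agonist of α1-adrenergic receptors of heart muscle, and per the labels it was added 12 h after transfection and left for 36 h (the study's culture methods give another duration). There were 3 independent biological replicates of each of the 4 combinations (siNeg and siSlc39a2, each alone and with PE), 12 samples in all.

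The libraries held between 24065539 and 28603854 counts, and no single gene took more than 2.8% of a library. Slc39a2 itself had 50 to 59 counts in siNeg and 2 to 21 in siSlc39a2, and its log2 fold change (with its standard error, SE) was -2.35 (SE 0.46, adjusted p = 0.00098) by edgeR. With PE it had 95 to 198 counts in siNeg PE and 25 to 38 in siSlc39a2 PE, and the change was -2.33 (SE 0.38, adjusted p = 0.000224). Markers of the labelled cell type were the most abundant, with 8 cardiomyocyte genes summing to between 20210 and 33970 FPKM (a level scaled to library size and transcript length) per sample. The 8 fibroblast markers summed to between 742.7 and 3436 FPKM, the 8 macrophage markers to between 28.57 and 99.1, the 6 markers of smooth muscle and pericytes to between 63.06 and 225.6, and the 8 endothelial markers to between 4.22 and 7.1. Within the lists of other cell types the levels varied. Cldn5 of endothelial cells had 0 to 3 counts and C1qb of macrophages 1 to 8 counts per sample, while Kdr of endothelial cells had 113 to 219, Lyz2 of macrophages 628 to 2593 and Col1a1 of fibroblasts 58334 to 302374. In siNeg, replicate 1 stood farther from the other two replicates than they did from each other (chi-square per degree of freedom 19.7 and 28.4, against 4.96). The same held for replicate 1 of siNeg PE (13.4 and 21.9, against 5.67) and for replicate 3 of siSlc39a2 (12.7 and 12.7, against 4.67). In siSlc39a2 PE, replicate 3 stood 33.8 from replicate 1 and 14.9 from replicate 2, while replicates 1 and 2 stood 9.19 apart.

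NRF2 is held at low levels in unstressed cells by KEAP1, an adaptor that presents it to the CUL3 ubiquitin ligase for degradation. Oxidants and electrophiles modify KEAP1 and let NRF2 accumulate, pair with small MAF proteins and bind antioxidant response elements in the promoters and enhancers of its targets. The targets supply glutathione, reduce thioredoxin and quinones, break down heme and regenerate peroxiredoxins. In heart muscle, whose many mitochondria release superoxide, superoxide dismutases and catalase remove the oxidants themselves, and only partly answer to NRF2. Since NRF2 is controlled largely at the protein level, the mRNA of Nfe2l2 is a separate quantity from its activity.

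Promoter windows of the genes, running from 250 bases before the transcription start to 50 bases after it, were taken from RefSeq on build GRCr8, and 9 of the 10 genes matched (all but Hmox1), Txnrd1 with 2 windows. This build is a later one than the Rnor_6.0 assembly of the sequencing data. The windows were searched on both strands for the core letters of the antioxidant response element, TGACNNNGC, and for the variant TGAGNNNGC. No stretch of letters can match both motifs. Of all 33469 rat promoter windows, 12.1% held the first, 17.2% the second and 27.1% either. Of the 10 windows of these genes, 5 held a match, those of Nfe2l2, Gclm, Srxn1 and Sod2 and 1 of Txnrd1. A match is a description of letters and not a measured binding site. The windows printed here, from 250 bases before the start to 20 bases after it, belong to members with unlike responses and carry their matches in capitals. Gclm, at chr2:213031885-213032154 on the plus strand, and Txnrd1, at chr7:22755885-22756154 on the minus strand (the second of its windows), were raised by both the knockdown and PE. Srxn1, at chr3:161064562-161064831 on the plus strand, passed the test for each treatment alone and not for either on top of the other. Nqo1, at chr19:52220248-52220517 on the minus strand, is the only member lowered by the knockdown. Each is written 5′ to 3′ on the strand of its gene.
Gclm: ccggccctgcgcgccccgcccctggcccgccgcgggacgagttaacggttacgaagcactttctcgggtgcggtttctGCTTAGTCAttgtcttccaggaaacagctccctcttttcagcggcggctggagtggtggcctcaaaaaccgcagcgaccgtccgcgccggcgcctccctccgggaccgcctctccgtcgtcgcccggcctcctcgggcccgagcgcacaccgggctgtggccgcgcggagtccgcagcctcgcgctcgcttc
Txnrd1: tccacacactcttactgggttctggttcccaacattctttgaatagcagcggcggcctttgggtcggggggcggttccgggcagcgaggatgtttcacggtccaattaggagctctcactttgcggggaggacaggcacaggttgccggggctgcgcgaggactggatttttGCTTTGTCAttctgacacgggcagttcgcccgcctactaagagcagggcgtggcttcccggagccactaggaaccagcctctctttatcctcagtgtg
Srxn1: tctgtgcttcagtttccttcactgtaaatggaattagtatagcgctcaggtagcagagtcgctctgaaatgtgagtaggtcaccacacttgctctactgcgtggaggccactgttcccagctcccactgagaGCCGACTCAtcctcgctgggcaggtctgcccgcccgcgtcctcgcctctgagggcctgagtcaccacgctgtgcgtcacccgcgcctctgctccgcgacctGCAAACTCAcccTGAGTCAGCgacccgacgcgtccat
Nqo1: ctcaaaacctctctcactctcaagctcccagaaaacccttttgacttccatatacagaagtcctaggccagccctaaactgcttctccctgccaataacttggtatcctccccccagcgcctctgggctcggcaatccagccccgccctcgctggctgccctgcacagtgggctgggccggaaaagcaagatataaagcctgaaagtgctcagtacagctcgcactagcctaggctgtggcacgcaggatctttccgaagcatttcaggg
The Gclm match ran from base -172 to base -164, counted from the start, and read TGACTAAGC on the opposite strand. The match of Txnrd1 ran from base -78 to base -70 and read TGACAAAGC, also on the opposite strand. Srxn1 held 3 matches to the variant, 1 of which spans the start site and reads TGAGTCAGC on the strand of the gene. The letters searched for did not occur in the Nqo1 window. Bases outside the windows were not searched, so an element farther from the start of any of these genes would be missed. The windows of Gclc, which PE raised, and of Sod1 and Cat held no match either. That of Sod2, which the knockdown raised and PE lowered, held 1.

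The main question asked of the 10 genes was whether the knockdown and PE changed their mRNA, alone and together. Counts were tested with edgeR (quasi-likelihood F-test) over 13967 genes, all 10 members included, and a change was called at a Benjamini-Hochberg adjusted p below 0.05. Most members rose after Slc39a2 knockdown without PE, and Nqo1 fell with and without PE. In siSlc39a2 against siNeg, 7 of the 10 were higher and 1 was lower, where 49.2% of all genes tested were called (22.8% higher and 26.4% lower). In siSlc39a2 PE against siNeg PE, 5 were higher and 1 was lower, where 57.3% of all genes were called (29.2% higher and 28.1% lower). With PE, Nfe2l2, Gclc, Gclm and Txnrd1 rose in both comparisons and Sod1 and Sod2 fell. In siNeg PE against siNeg, 5 members were higher and 2 lower, where 49.7% of all genes were called (24% higher and 25.7% lower). In siSlc39a2 PE against siSlc39a2, 5 were higher and 3 lower, where 60% of all genes were called (30.7% higher and 29.3% lower).

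The PE and knockdown comparisons share samples, so their values are given side by side and not set against each other. Without siNeg replicate 1, 6 members were called for PE in siNeg cells (38.3% of all genes) and 8 for the knockdown without PE (43.6%). Without siSlc39a2 PE replicate 3, 7 were called for PE after knockdown (50.4% of all genes) and 6 for the knockdown with PE (49.7%). The median log2 fold change of the members was 0.34 in siSlc39a2 against siNeg, beside -0.02 over all genes tested, and 0.36 beside 0.01 in siSlc39a2 PE against siNeg PE. For PE it was 0.22 beside -0.01 in siNeg cells and 0.25 beside 0.01 after knockdown. Nqo1 was the only member to pass an absolute log2 fold change of 1 as well, in both knockdown comparisons, where 9.78% of all genes passed both thresholds without PE and 11.6% with PE. For PE 0 members passed both, where 6.6% of all genes did in siNeg cells and 10.5% after knockdown. The 2 knockdown comparisons share no sample, and 6 members had the same call in both, 5 of them higher (Nfe2l2, Hmox1, Gclm, Txnrd1 and Sod2) and 1 lower (Nqo1). Over all genes tested, 40% had the same call in both. The 2 PE comparisons share no sample either, and again 6 members had the same call, with Nfe2l2, Gclc, Gclm and Txnrd1 higher and Sod1 and Sod2 lower, beside 41.3% of all genes.

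**Figure D1:**
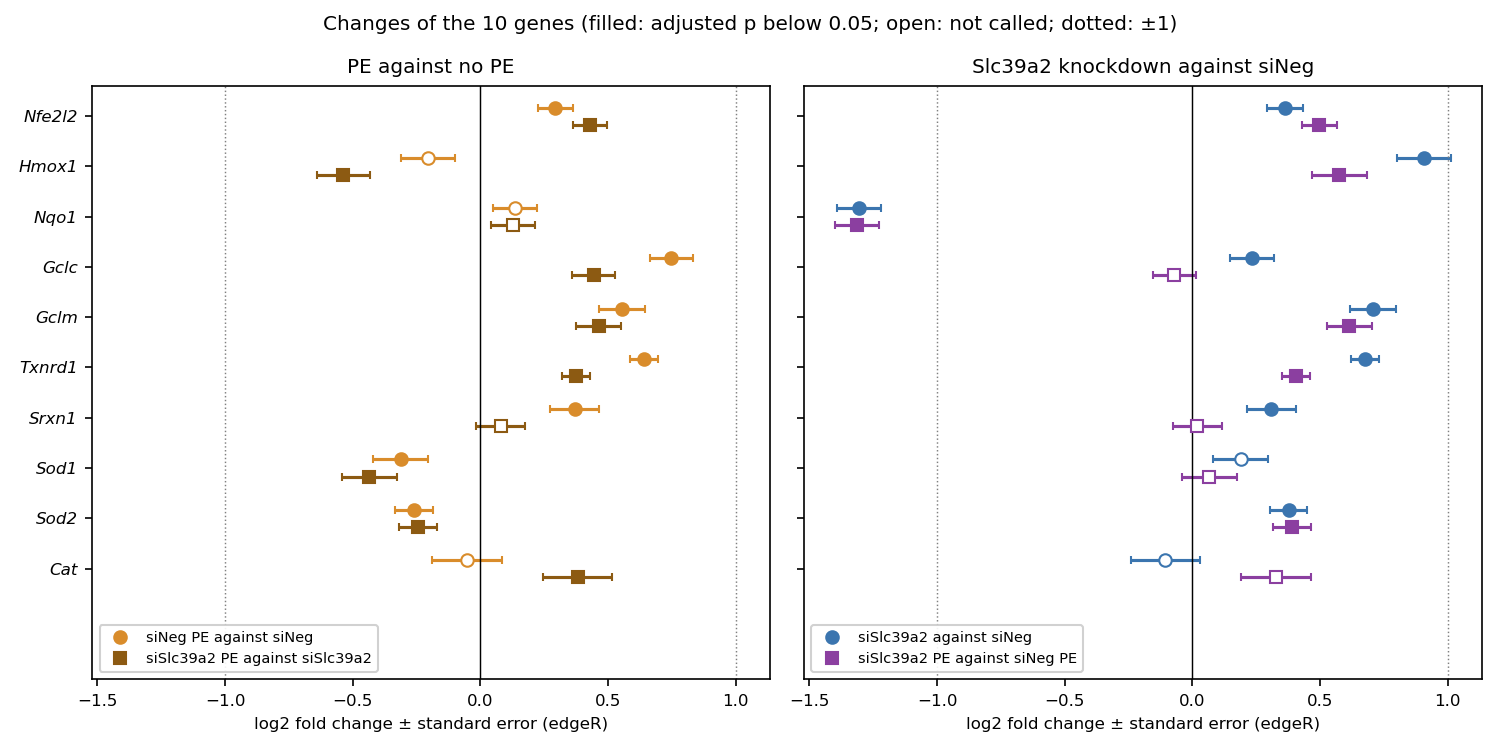
Log2 fold change of each of the 10 genes with its standard error from edgeR (horizontal axis), for PE against no PE on the left and for Slc39a2 knockdown against siNeg on the right. Circles and squares are the 2 comparisons named in each legend, filled symbols are those with an adjusted p below 0.05, and dotted lines mark a log2 fold change of 1 in either direction. Nqo1 lies at -1.31 in both knockdown comparisons, to the left of every other value plotted.

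Nfe2l2 (NCBI gene 83619), the regulator, rose with each treatment and was highest with both. In CPM (counts scaled to library size with TMM factors) its level was 91.9, 93.3 and 86.9 in the siNeg samples, 112, 111 and 111 in siNeg PE, 113, 113 and 124 in siSlc39a2 and 144, 156 and 171 in siSlc39a2 PE. Every siNeg sample lay below all the others and every siSlc39a2 PE sample above them. The siNeg PE and siSlc39a2 samples lay next to each other, between 110.5 and 112.1 and between 112.5 and 124.3, and were not tested against each other. The log2 fold change was 0.29 (SE 0.07, adjusted p = 0.00394) for PE in siNeg cells and 0.43 (SE 0.07, adjusted p = 0.000198) for PE after knockdown. For the knockdown it was 0.36 (SE 0.07, adjusted p = 0.000806) without PE and 0.50 (SE 0.07, adjusted p = 5.79e-05) with PE. From siNeg to siSlc39a2 PE the mean rose 1.73-fold, from 90.7 ± 3.34 to 157 ± 13.2 CPM (SD, n = 3). The interaction, which is the knockdown effect with PE less that without it, was 0.14 (SE 0.10, adjusted p = 0.556) and was not called.

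Hmox1 (NCBI gene 24451) encodes heme oxygenase 1, the inducible enzyme that opens the heme ring and releases iron, carbon monoxide and biliverdin. Its level was 46.1, 43.4 and 42.8 CPM in siNeg and 87.7, 88.4 and 72.1 CPM in siSlc39a2. With PE it was 40.8, 38.7 and 35.2 CPM in siNeg PE and 65.5, 55.5 and 50.1 CPM in siSlc39a2 PE. All knockdown samples lay above all control samples, and within each siRNA the PE samples lay below those without PE. Without PE, Hmox1 had the largest rise of any member after knockdown, 1.88-fold, a log2 fold change of 0.91 (SE 0.11, adjusted p = 1.69e-05). With PE the knockdown effect was 0.58 (SE 0.11, adjusted p = 0.000558), next to 0.61 for Gclm. PE lowered it after knockdown, with -0.54 (SE 0.11, adjusted p = 0.000856), while in siNeg cells the difference was -0.21 (SE 0.11, adjusted p = 0.128) and was not called. The interaction was -0.33 (SE 0.15, adjusted p = 0.3), so that the effects were not shown to differ. The order from high to low was siSlc39a2, siSlc39a2 PE, siNeg and siNeg PE, and the mean was 2.16 times as high in the first as in the last.

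Nqo1 (NCBI gene 24314) encodes the quinone reductase NQO1, a target often used to read NRF2 activity, and after knockdown it fell while Nfe2l2 rose. The siNeg samples had 264, 220.1 and 214 CPM and the siNeg PE samples 242, 257 and 269.6 CPM. The siSlc39a2 samples had 88.5, 96.8 and 97.2 CPM and the siSlc39a2 PE samples 111, 96.0 and 102 CPM. The lowest control sample was thus well above the highest knockdown sample, with and without PE, while samples with and without PE overlapped within each siRNA. The knockdown left 0.404 of the siNeg level, a log2 fold change of -1.31 (SE 0.09, adjusted p = 7.62e-08). With PE it left 0.402 of the siNeg PE level, with -1.31 (SE 0.09, adjusted p = 7.37e-08). The interaction was -0.01 (SE 0.12, adjusted p = 0.987). For PE the log2 difference was 0.14 (adjusted p = 0.194) in siNeg cells and 0.13 (adjusted p = 0.212) after knockdown, neither of them called. Without siNeg replicate 1, the highest of its group, the PE difference in siNeg cells was 0.24 with an adjusted p of 0.0264, and it was 0.32 (adjusted p = 0.00702) by limma on quantile-normalized log2(FPKM + 1).

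Fibroblast markers moved in the same direction as Nqo1 in the knockdown cultures. Of the 8 fibroblast markers, 6 were lower and 1 was higher (Tcf21) in siSlc39a2 than in siNeg, and their summed level was 1114 to 1220 FPKM against 2520 to 3436. With PE the counts were the same and the sums were 742.7 to 1042 against 1810 to 2362 FPKM. In siNeg PE against siNeg, 4 of the 8 were lower (Col1a1, Col1a2, Col3a1 and Tcf21) and 2 higher (Dcn and Pdgfra). Beside these marker counts and those below, 26.4% of all genes tested were lower and 22.8% higher after knockdown without PE. For the knockdown with PE the shares were 28.1% lower and 29.2% higher, and for PE in siNeg cells 25.7% and 24%. Macrophage markers summed to 40.98 to 50.93 FPKM in siSlc39a2 against 69.78 to 99.1 in siNeg, and to 34.75 to 45.64 in siNeg PE. Most of each sum was Lyz2, with means of 33.8, 65.7 and 31.3 FPKM in these groups. Of the 6 smooth muscle and pericyte markers 5 were lower after knockdown without PE, with sums of 63.06 to 68.27 against 94.34 to 112.4 FPKM. With PE 2 were higher (Cnn1 and Kcnj8) and 2 lower (Pdgfrb and Abcc9), with sums of 211.7 to 225.6 against 165.9 to 201.4 FPKM. Most of these sums was Cnn1, with means of 173.6 FPKM in siSlc39a2 PE and 122.5 in siNeg PE. PE also raised Cnn1 within each siRNA. Of the 8 cardiomyocyte markers, 3 were lower (Myh6, Tnni3 and Actn2) and 0 higher without PE, with sums of 20210 to 20700 against 20270 to 21230 FPKM. With PE 3 were lower (Myh6, Tnni3 and Ryr2) and 1 was higher (Actc1), with sums of 31170 to 33970 against 27190 to 28730 FPKM. Actc1 alone had means of 18710 FPKM in siSlc39a2 PE and 13690 in siNeg PE. Of the markers named here, Myh6, Tnni3, Actc1, Col1a2, Pdgfra and Lyz2 had counts that were not whole numbers, so their values are uncertain. In bulk RNA, fewer cells of a type and less RNA per cell cannot be told apart, and the part of other cell types in the changes of these 10 genes was not tested.

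**Figure D2:**
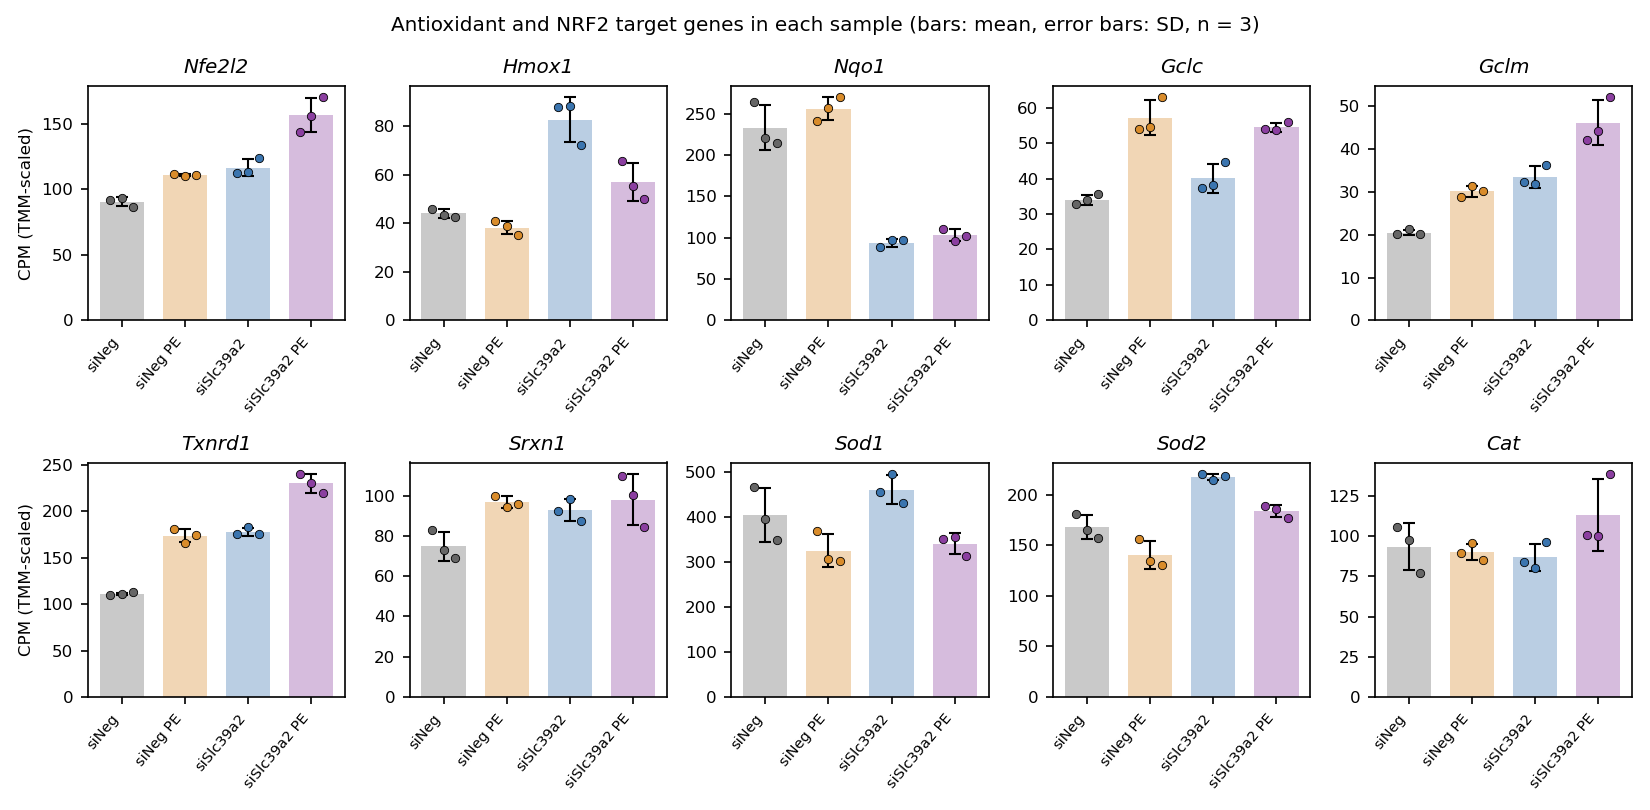
Level of each gene in CPM (vertical axes, each starting at 0) in the 4 groups. Points are single samples, bars are group means and error bars the SD (n = 3). Nqo1 lies between 88.5 and 110.5 CPM in the 6 knockdown samples and between 214 and 270 CPM in the 6 control samples, while Nfe2l2, Gclm and Txnrd1 rise from siNeg to siSlc39a2 PE.

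Gclc (NCBI gene 25283) and Gclm (NCBI gene 29739) encode the catalytic and the modifier subunit of glutamate-cysteine ligase, the rate-limiting step of glutathione synthesis. Both rose with PE, and Gclm rose with the knockdown in both comparisons. Gclc had 32.7, 33.9 and 35.5 CPM in siNeg, 53.9, 54.6 and 62.9 in siNeg PE, 37.2, 38.2 and 44.6 in siSlc39a2 and 53.8, 53.5 and 55.9 in siSlc39a2 PE. Its PE samples lay above all samples without PE, and siNeg PE overlapped siSlc39a2 PE. PE raised Gclc 1.68-fold in siNeg cells, a log2 fold change of 0.75 (SE 0.09, adjusted p = 2.76e-05), the largest rise of any member in that comparison. After knockdown the PE effect was 0.44 (SE 0.09, adjusted p = 0.000705). The knockdown effect was 0.23 (SE 0.09, adjusted p = 0.0373) without PE and -0.07 (SE 0.08, adjusted p = 0.493) with PE, which was not called. The call without PE was lost without siNeg replicate 1 (0.21, adjusted p = 0.102), without siNeg replicate 2 (0.23, adjusted p = 0.0878), without siSlc39a2 replicate 3 (0.20, adjusted p = 0.0708) and by limma on log2(FPKM + 1) (0.16, adjusted p = 0.1). The interaction of Gclc was -0.30 (SE 0.12, adjusted p = 0.227) and was not called.

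Gclm rose with both treatments. It had 20.2, 21.3 and 20.1 CPM in siNeg, 28.9, 31.4 and 30.3 in siNeg PE, 32.2, 32.0 and 36.4 in siSlc39a2 and 42.2, 44.3 and 52.1 in siSlc39a2 PE. The 4 groups did not overlap in any of the 4 comparisons. PE gave a log2 fold change of 0.56 (SE 0.09, adjusted p = 0.000372) in siNeg cells and 0.46 (SE 0.09, adjusted p = 0.000682) after knockdown. The knockdown gave 0.71 (SE 0.09, adjusted p = 3.44e-05) without PE and 0.61 (SE 0.09, adjusted p = 8.23e-05) with PE. Between siNeg and siSlc39a2 PE its mean rose 2.25-fold, the widest rise of any member. The ligase substrate supply gene Slc7a11, which encodes the cystine transporter, rose with PE by 0.69 in siNeg cells (adjusted p = 0.0104) and 0.92 after knockdown (adjusted p = 0.00142). The first of these was not called without siNeg PE replicate 3 (0.57, adjusted p = 0.0504) or by limma on log2(FPKM + 1) (0.20, adjusted p = 0.0794).

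Txnrd1 (NCBI gene 58819) encodes the cytosolic thioredoxin reductase, which keeps thioredoxin reduced at the expense of NADPH. It had 110.3, 111 and 113 CPM in siNeg, 181, 166 and 174 in siNeg PE, 175, 183 and 175 in siSlc39a2 and 240.2, 231 and 219.8 in siSlc39a2 PE. The siNeg samples were lowest and the siSlc39a2 PE samples highest, without overlap, and the other two groups overlapped each other. PE raised Txnrd1 1.56-fold in siNeg cells, a log2 fold change of 0.64 (SE 0.06, adjusted p = 3.11e-06), and 1.30-fold after knockdown, with 0.37 (SE 0.06, adjusted p = 0.000109). The knockdown raised it 1.60-fold without PE, with 0.68 (SE 0.06, adjusted p = 6.13e-07), and 1.33-fold with PE, with 0.41 (SE 0.06, adjusted p = 4.89e-05). On the log2 scale the interaction was -0.27 (SE 0.08, adjusted p = 0.0833). This missed the threshold in edgeR and passed it in DESeq2 (-0.29, adjusted p = 0.0061) and in limma on log2(FPKM + 1) (-0.31, adjusted p = 0.0271). It also passed without siSlc39a2 replicate 3 (-0.33, adjusted p = 0.0498).

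Srxn1 (NCBI gene 296271) encodes sulfiredoxin, which restores overoxidized peroxiredoxins. It had 82.8, 73.0 and 68.9 CPM in siNeg, 100, 94.3 and 95.8 in siNeg PE, 92.4, 98.4 and 87.6 in siSlc39a2 and 109.6, 100.4 and 84.2 in siSlc39a2 PE. The siNeg samples lay below all the others, and the other groups overlapped. PE raised it in siNeg cells, with a log2 fold change of 0.37 (SE 0.10, adjusted p = 0.00698), and the knockdown raised it without PE, with 0.31 (SE 0.10, adjusted p = 0.0163). On top of the other treatment the differences were 0.08 (adjusted p = 0.49) for PE and 0.02 (adjusted p = 0.872) for the knockdown, neither called. The interaction was -0.29 (SE 0.13, adjusted p = 0.313), so that the effects were not shown to differ. The knockdown call was lost without siNeg replicate 2 (0.29, adjusted p = 0.0539), without siNeg replicate 3 (0.25, adjusted p = 0.0685) and without siSlc39a2 replicate 2 (0.27, adjusted p = 0.0623).

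Sod1 (NCBI gene 24786) and Sod2 (NCBI gene 24787) encode the cytosolic copper-zinc and the mitochondrial manganese superoxide dismutase, which turn superoxide into hydrogen peroxide. Both fell with PE, and Sod2 rose with the knockdown. Sod2 had 181, 165 and 158 CPM in siNeg, 156, 134 and 131 in siNeg PE, 221, 215 and 219 in siSlc39a2 and 189, 186 and 177 in siSlc39a2 PE. The siSlc39a2 samples were all above the rest, and in each comparison the groups did not overlap. The knockdown gave a log2 fold change of 0.38 (SE 0.07, adjusted p = 0.00101) without PE and 0.39 (SE 0.07, adjusted p = 0.000632) with PE. PE gave -0.26 (SE 0.07, adjusted p = 0.0117) in siNeg cells and -0.24 (SE 0.07, adjusted p = 0.0118) after knockdown. The PE call in siNeg cells was lost without siNeg replicate 1 (-0.20, adjusted p = 0.0526), without siNeg PE replicate 2 (-0.23, adjusted p = 0.0547) and without siNeg PE replicate 3 (-0.21, adjusted p = 0.0604).

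Sod1 is the one member whose expected counts were not whole numbers, as happens where reads match several genes, so its values are uncertain. It had 467, 395 and 348 CPM in siNeg, 368, 306 and 301 in siNeg PE, 454, 495 and 431 in siSlc39a2 and 351, 356 and 314 in siSlc39a2 PE. In siNeg cells the PE samples overlapped those without PE, while after knockdown every PE sample lay lower. The log2 fold change with PE was -0.31 (SE 0.11, adjusted p = 0.0295) in siNeg cells and -0.44 (SE 0.11, adjusted p = 0.00386) after knockdown. The first of these kept its call in 6 of 14 alternatives. Among those that lost it, the value was -0.19 (adjusted p = 0.144) without siNeg replicate 1 and -0.12 (adjusted p = 0.195) by limma on log2(FPKM + 1). It was also not called without siNeg replicate 2, siNeg PE replicate 2 or siNeg PE replicate 3 (adjusted p = 0.0528, 0.105 and 0.113). For the knockdown the difference was 0.19 (adjusted p = 0.162) without PE and 0.07 (adjusted p = 0.623) with PE, neither called by edgeR. By limma on log2(FPKM + 1) these were 0.48 (adjusted p = 0.000169) and 0.29 (adjusted p = 0.00407), and without siNeg replicate 1 the first was 0.31 (adjusted p = 0.0269).

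Cat (NCBI gene 24248) encodes catalase, the peroxisomal enzyme that splits hydrogen peroxide. It had 106, 97.3 and 77.3 CPM in siNeg, 89.8, 95.5 and 85.1 in siNeg PE, 83.7, 80.4 and 96.4 in siSlc39a2 and 101, 100.0 and 139 in siSlc39a2 PE. The first 3 groups overlapped, and siSlc39a2 PE had 1 high sample, replicate 3. PE raised Cat after knockdown, with a log2 fold change of 0.38 (SE 0.14, adjusted p = 0.0276). Of 14 alternatives run for this call, 10 kept it. It was lost, among others, without siSlc39a2 PE replicate 3 (0.21, adjusted p = 0.154), without siSlc39a2 replicate 1 (0.36, adjusted p = 0.0826) and without siSlc39a2 replicate 2 (0.33, adjusted p = 0.0982). With PE the knockdown difference was 0.33 (SE 0.14, adjusted p = 0.0548), short of the threshold, which it passed in DESeq2 (0.32, adjusted p = 0.0422), with no filter on low counts (0.33, adjusted p = 0.0452), without siSlc39a2 PE replicate 1 (0.40, adjusted p = 0.0299) and without siSlc39a2 PE replicate 2 (0.41, adjusted p = 0.0368). Without siSlc39a2 PE replicate 3 it was 0.15 (adjusted p = 0.295). The PE difference in siNeg cells was -0.05 (adjusted p = 0.767) and the knockdown difference without PE -0.11 (adjusted p = 0.54). The interaction of Cat was 0.43 (SE 0.19, adjusted p = 0.291) and was not called.

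Whether PE and the knockdown acted on each other was asked with the interaction term, which passed for 0 of the 10 members by edgeR, where 3.61% of all genes were called (0.988% with an absolute log2 value above 1 as well). At an unadjusted p below 0.05 there were 4 members (Hmox1, Gclc, Txnrd1 and Cat), against 2235 of the 13967 genes. DESeq2 and limma on log2(FPKM + 1) each called 1 member, Txnrd1. The median interaction of the members was -0.11, beside 0.03 over all genes. The effects with and without the other treatment are plotted against each other for these genes and for 60 more genes of the same pathways.

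**Figure D3:**
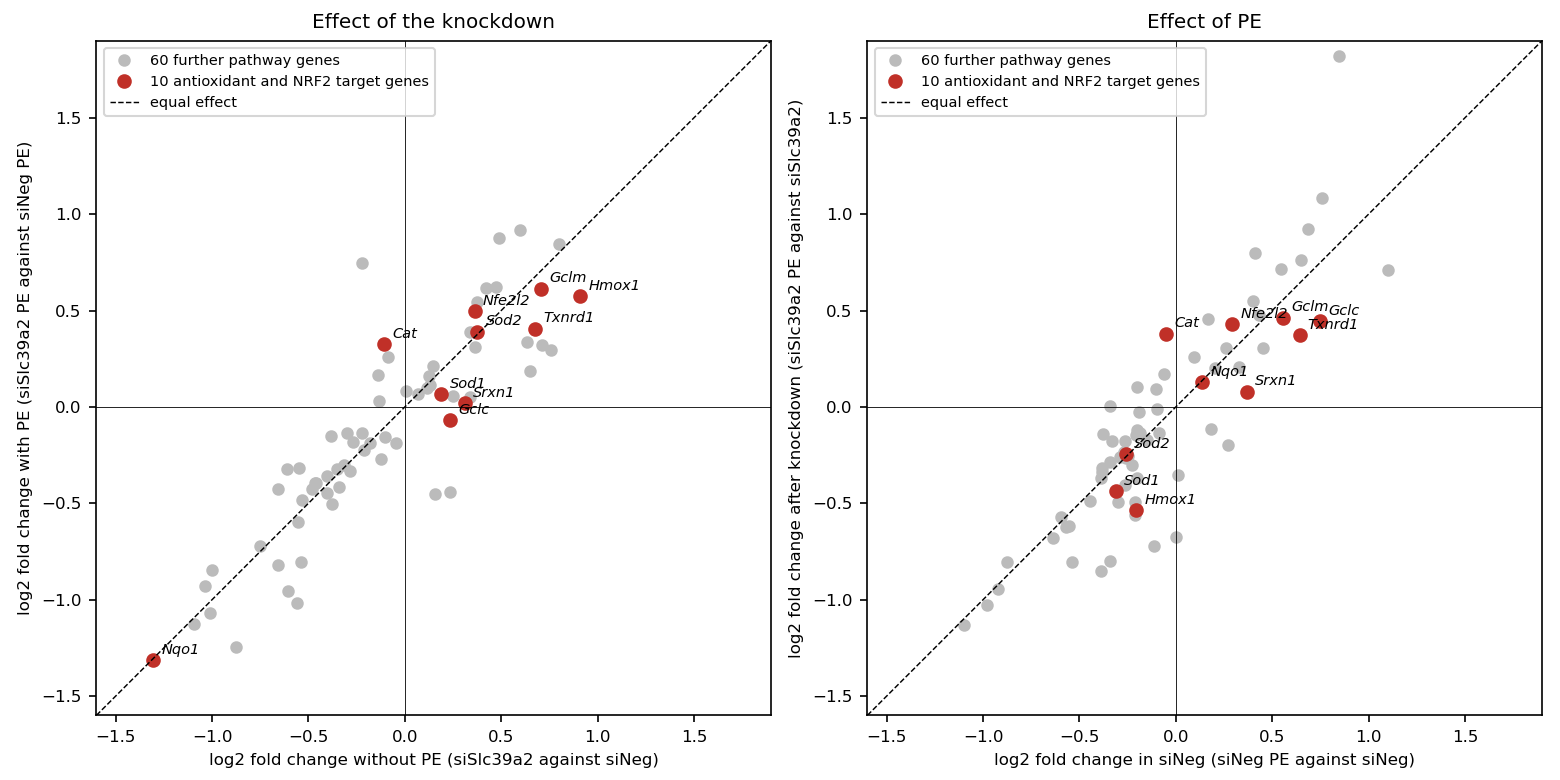
Log2 fold changes from edgeR with the other treatment absent (horizontal axis) and present (vertical axis), for the knockdown on the left and PE on the right. Red points are the 10 genes, grey points 60 further pathway genes and the dashed line marks equal effects. For the knockdown, Txnrd1 lies below the line at 0.68 and 0.41, Hmox1 at 0.91 and 0.58, and Nqo1 lies on it at -1.31 in both.

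Levels of different genes can be compared in FPKM, which is scaled to transcript length. In siNeg, Sod1 was the most abundant member at 680.3 ± 81.2 FPKM (SD, n = 3), above 98.7% of the genes tested. Nqo1 followed at 161 ± 14.9 FPKM and Sod2 at 77.5 ± 4.23 FPKM. Nfe2l2 (37.0 ± 1.18), Cat (36.0 ± 5.01), Txnrd1 (31.5 ± 0.977), Hmox1 (28.6 ± 0.478) and Srxn1 (25.4 ± 1.87) lay in the middle, and Cat differed from neither Nfe2l2 nor Txnrd1 beyond its spread. Gclc and Gclm were lowest, at 10.9 ± 0.671 and 10.8 ± 0.307 FPKM, and did not differ beyond their spread either. In siSlc39a2 PE the order changed: Sod1 was at 613 FPKM, Sod2 at 88.3, Nqo1 at 75.9, Txnrd1 at 69.3 and Nfe2l2 at 67.9, the last 3 of which overlapped. Gclm then had 23.7 FPKM and Gclc 18.5.

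The genes whose pattern over the 12 samples was closest to that of Nfe2l2 were found by the root mean square difference of log2 CPM, each gene centred on its own mean, among 9500 genes with whole counts. They were Pdap1 at 0.051, Arl1 at 0.058 and Txnl1 at 0.059. Of the members, Gclm was closest at 0.152 and Txnrd1 next at 0.165, and 697 and 909 are their ranks among the genes tested. Nqo1 was farthest at 0.883, with rank 12641. These distances describe patterns in samples that share libraries and carry no test.

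The other genes of the same pathways were counted from lists of 61 genes in the table, of which 60 could be tested (Gsta3 had at most 2 counts in a sample). They moved more often down than up. In siSlc39a2 against siNeg 14 were higher and 27 lower (68.3% called, where 49.2% of all genes were), and in siSlc39a2 PE against siNeg PE 12 were higher and 27 lower (65%, where 57.3% of all genes were). With PE, 14 were higher and 23 lower in siNeg cells (61.7%, against 49.7% of all genes), and 14 were higher and 31 lower after knockdown (75%, against 60%). The median log2 fold change of the 60 was -0.22 for the knockdown without PE and -0.19 with PE, beside 0.34 and 0.36 for the 10 members. For the single lists below, the shares of all genes called higher and lower were 22.8% and 26.4% for the knockdown without PE. They were 29.2% and 28.1% for the knockdown with PE. For PE they were 24% and 25.7% in siNeg cells and 30.7% and 29.3% after knockdown. No list was tested as a set.

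Of the 9 regulators and partners of NRF2, 7 were higher and 0 lower after knockdown without PE, and 6 were higher and 0 lower with PE. Over all genes tested, 22.8% were higher and 26.4% lower without PE, and 29.2% and 28.1% with PE. The list mixes genes of opposite action. The 7 include Keap1 and Cul3, which act in the degradation of NRF2, so the count gives no direction for NRF2 activity. The small MAF genes, whose products pair with NRF2, led the list: Maff had a log2 fold change of 0.80 (adjusted p = 0.000334) and Mafg 0.76 (adjusted p = 2.2e-07) without PE, and Mafk 0.92 (adjusted p = 2.42e-07) and Maff 0.85 (adjusted p = 0.00015) with PE. With PE, 5 of the 9 were higher and 2 lower in siNeg cells, and 3 were higher and 3 lower after knockdown. Mafk rose by 0.76 and 1.08, and Cul3, of the ubiquitin ligase, by 0.55 and 0.72. Keap1, which holds NRF2 in check, fell with PE by 0.30 (adjusted p = 0.012) in siNeg cells and by 0.49 (adjusted p = 0.000373) after knockdown. The knockdown without PE raised Keap1 by 0.25 (adjusted p = 0.0275), a call lost on leaving out siNeg replicate 2 or 3 or siSlc39a2 replicate 1 or 2 (0.20 to 0.24, adjusted p = 0.0684 to 0.106), and with PE the knockdown difference was 0.06 (adjusted p = 0.594). The Keap1 call for PE in siNeg cells was lost without siNeg replicate 1 (-0.23, adjusted p = 0.0556) and without siNeg PE replicate 3 (-0.26, adjusted p = 0.0534). Mafg was 1 of 2 genes of the lists with an interaction past the threshold, at -0.47 (SE 0.08, adjusted p = 0.00544), where PE raised it in siNeg cells (0.27) and lowered it after knockdown (-0.20). The counts of Mafk were not whole numbers, so its values are uncertain.

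Of the 10 genes of glutathione synthesis, reduction and peroxidases, 2 were higher and 4 lower after knockdown without PE, and 2 higher and 3 lower with PE. Gpx3, the secreted glutathione peroxidase, rose with PE by 1.10 in siNeg cells and 0.71 after knockdown, and with the knockdown by 0.71 without PE. Gpx7, a peroxidase of the endoplasmic reticulum, fell with the knockdown by 1.00 without PE (adjusted p = 6.96e-08) and by 0.85 with PE. With PE, 2 of the 10 were higher and 4 lower in siNeg cells, and 3 were higher and 4 lower after knockdown. Across the 4 comparisons, 22.8% to 30.7% of all genes were called higher and 25.7% to 29.3% lower.

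The glutathione transferases, which join glutathione to electrophiles, include classic NRF2 targets, and every called change among them was a fall. Of the 7 tested, 5 were lower after knockdown without PE and 6 with PE, and 0 were higher. Over all genes tested, 26.4% were lower and 22.8% higher without PE, and 28.1% and 29.2% with PE. PE lowered 3 of 7 in siNeg cells and 7 of 7 after knockdown. Gsta4, which acts on the lipid peroxidation product 4-hydroxynonenal, fell with the knockdown by 0.88 without PE (adjusted p = 1.17e-05) and by 1.25 with PE (adjusted p = 4.86e-07). Mgst3, whose counts were not whole numbers, fell by 1.09 and 1.12 with the knockdown and by 1.10 and 1.13 with PE.

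Of the 10 thioredoxin and peroxiredoxin genes, 6 were lower in each of the 4 comparisons, while 1 at most was higher. The 6 were not the same genes throughout, as Txnip and Txnrd2 fell with PE and were not called for the knockdown. Among all genes tested, 25.7% to 29.3% were lower and 22.8% to 30.7% higher. With PE, Txnip, which binds and inhibits thioredoxin, fell by 0.92 in siNeg cells and by 0.94 after knockdown. Txnrd2, the mitochondrial counterpart of Txnrd1, fell with PE by 0.57 (adjusted p = 0.000111) and 0.62 (adjusted p = 3.35e-05), where Txnrd1 rose. With the knockdown Prdx4 fell by 0.66 and Prdx2 by 0.56 without PE, and Txn1, thioredoxin itself, rose by 0.36 (adjusted p = 0.023). The Txn1 call was lost without siNeg replicate 2 or 3 or siSlc39a2 replicate 2 (0.37, 0.26 and 0.28, with adjusted p of 0.0532, 0.0988 and 0.0997).

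Sod3, which encodes the extracellular superoxide dismutase, moved opposite to Sod2 in every comparison. PE raised it by 0.65 (adjusted p = 9.26e-05) and 0.76 (adjusted p = 2.01e-05), and with the knockdown it fell by 1.04 (adjusted p = 1.01e-06) and 0.93 (adjusted p = 2.26e-06). Ccs, the copper chaperone of Sod1, fell with the knockdown by 0.34 without PE and 0.41 with PE. The Ccs call without PE was lost without siSlc39a2 replicate 3 (-0.25, adjusted p = 0.0876).

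Of the 6 heme and iron genes, 0 were higher and 2 lower after knockdown without PE. Both were ferritin chains, with Ftl1 at -1.01 (adjusted p = 9.86e-07) and Fth1 at -0.53 (adjusted p = 0.00203), and both had counts that were not whole numbers. By limma on log2(FPKM + 1) Fth1 was at -0.12 (adjusted p = 0.156). With PE the knockdown comparison had 1 higher and 2 lower. PE had 1 higher and 3 lower in siNeg cells and the same counts after knockdown. The gene that rose was Tfrc, the transferrin receptor, by 0.85 and 1.82. Beside these counts, 22.8% to 30.7% of all genes were called higher and 25.7% to 29.3% lower in a comparison.

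Of the 6 genes that supply NADPH, 1 was higher and 4 were lower in both knockdown comparisons. Tkt, transketolase of the pentose phosphate pathway, fell by 0.66 without PE and 0.82 with PE, and the cytosolic isocitrate dehydrogenase gene Idh1 rose by 0.47 and 0.62. With PE 3 were higher and 2 lower, in siNeg cells and after knockdown. Of the last list of 10 further NRF2 targets, 3 were higher and 4 lower after knockdown without PE and 1 was higher and 4 lower with PE. Trim16 rose by 0.49 and 0.88, while Ephx1, the microsomal epoxide hydrolase gene, fell by 0.41 and 0.45 with counts that were not whole numbers. The first of these Ephx1 calls was lost without siSlc39a2 replicate 3 (-0.27, adjusted p = 0.0579). With PE 2 were higher and 3 lower in siNeg cells and 2 higher and 5 lower after knockdown. For both lists, the shares over all genes were 22.8% to 30.7% higher and 25.7% to 29.3% lower in a comparison.

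**Figure D4:**
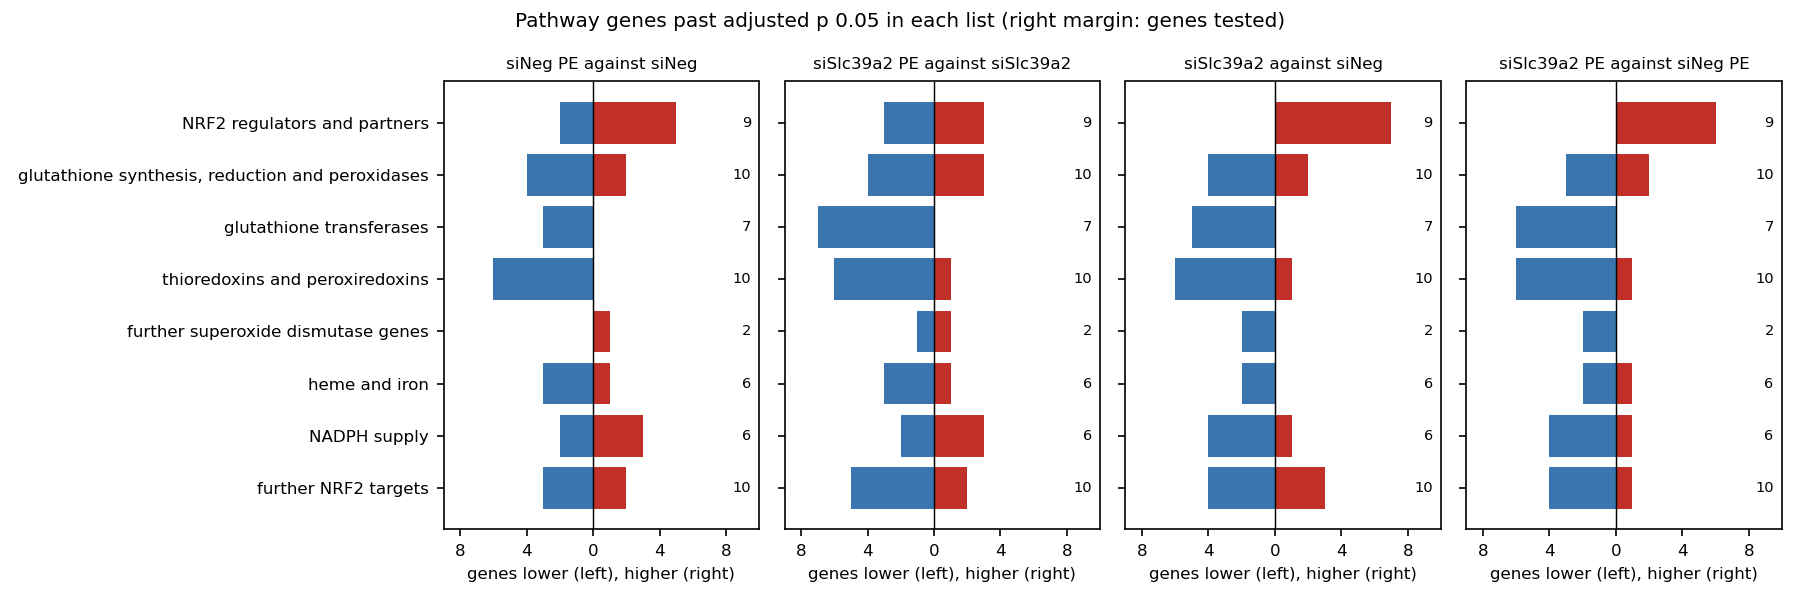
Number of genes past an adjusted p of 0.05 in each of 8 pathway lists (rows) in the 4 comparisons (panels), lower to the left of 0 and higher to the right. The number at the right margin is that of genes tested in the list. After knockdown the regulators and partners of NRF2 lie only to the right, with 7 and 6 of 9, and the glutathione transferases only to the left, with 5 and 6 of 7. Of all genes tested, 22.8% and 29.2% were higher and 26.4% and 28.1% lower in these knockdown comparisons. The list of regulators holds genes of NRF2 degradation as well as its partners.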

How the data were processed

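RNA-seq of NRVMs in 4 groups of 3 samples was analysed from processed values, with groups taken from the sample labels. For 18483 genes the authors deposited FPKM values and unnormalized expected counts. Per the submitters' processing notes, HISAT, Bowtie2 and the assembly Rnor_6.0 were used. The counting program, the annotation and the tool versions are not given in the sources used here. Expected counts were whole in every sample for 70% of the genes and for 9 of the 10 members. Other genes may share reads with further genes and are uncertain. Per the labels replicates were biological, yet p-values measure only the spread between these samples.

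Counts were rounded, filtered by filterByExpr (13967 genes kept, 4516 left out), scaled by TMM and fitted in edgeR 4.0.16 (R 4.3.3), all 4 groups together, which leaves 8 residual degrees of freedom. The quasi-likelihood F-test was used, p-values were adjusted by Benjamini-Hochberg over all 13967 genes, changes were called at an adjusted p below 0.05, and the standard error is the log2 fold change over the square root of F. FPKM were used for levels between genes and for marker sums. Alternatives were DESeq2 1.42.0, RLE size factors, no filter, the compared groups alone, a replicate block, leaving out each sample, and limma 3.58.1 after quantile normalization of log2(FPKM + 1) or log2(FPKM + 0.1). The study's methods name limma after the normalizeBetweenArrays function; the quantile setting and the log2 input were chosen here.

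The members, the pathway and marker lists and the tests were chosen with earlier results of these data known. All 10 members are named. Of each pathway list, at most the 2 genes with the largest called rise and the 2 with the largest called fall in a comparison are named, with genes that act at the same step as a member. The 3 genes most like Nfe2l2 are named by their distance.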

Additional observations from a re-analysis of the deposited data

Results flagged for a closer look

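The effect of the knockdown differed with and without PE, by the interaction test of edgeR, in 2 genes of the pathway lists and in 0 of the 10 members, while 504 of the 13967 genes tested differed so. Mafg, a small MAF partner of NRF2, had 48.5 ± 0.681 CPM in siNeg and 82.1 ± 2.77 in siSlc39a2 without PE, and 58.4 ± 0.525 and 71.6 ± 1.998 with it (SD, n = 3). Its knockdown effect with PE was -0.47 on the log2 scale relative to that without PE (standard error 0.08, adjusted p = 0.00544 by edgeR). Slc6a9, the gene of the glycine transporter GLYT1, had 101.7 ± 3.33 CPM in siNeg and 119.6 ± 9.07 in siSlc39a2 without PE, and 101.7 ± 9.13 and 74.9 ± 6.09 with it. Its knockdown effect with PE was -0.68 relative to that without PE (standard error 0.12, adjusted p = 0.00679 by edgeR), and its counts were not whole numbers, so reads may be shared with other genes. Both differences passed the threshold in every alternative run for them.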

How the results depend on the processing

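Of the single-gene values, those that turned sign were small and uncalled. For Cat with PE in siNeg cells the log2 difference was 0.05, 0.06 and 0.05 by limma on log2(FPKM + 1), on log2(FPKM + 0.1) and on all genes, and leaving out 1 sample gave -0.17 to 0.05. For Srxn1 in the knockdown with PE limma gave -0.04, -0.04 and -0.03, and leaving out 1 sample -0.07 to 0.12. Srxn1 with PE after knockdown ranged from -0.03 to 0.18 and Gclc in the knockdown with PE from -0.11 to 0 without 1 sample. The interaction of Sod2 was -0.01 with RLE size factors and DESeq2, -0.02 without the filter and -0.08 in the 3 limma fits. Without 1 sample the interaction ranged from -0.04 to 0.10 for Sod2 and from -0.11 to 0.05 for Nqo1.

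The interaction passed for 1 member (Txnrd1) in DESeq2, with the replicate block and in each limma fit, and for 0 or 1 without 1 sample (1 without siSlc39a2 replicate 3). Among the 60 pathway genes it passed for 6 in DESeq2, 11 with the replicate block, 8, 6 and 8 in the limma fits, and 2 to 5 without 1 sample (5 without siNeg replicate 1). Over all genes it passed for 504 in edgeR, 806 in DESeq2, 1053 with the block and 805 in limma on log2(FPKM + 1); the cause was not tested. Without 1 sample the members called numbered 5 to 7 (PE in siNeg cells, 36.3% to 48.7% of all genes), 7 to 8 (PE after knockdown, 49.9% to 60.5%), 6 to 8 (knockdown, 41.1% to 44.3%) and 6 to 7 (knockdown with PE, 49.7% to 56.8%).

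Of 18 pairs of same-numbered samples, 8 had deviations from their group means that correlated above 0.1 (range -0.09 to 0.32). By mean correlation, 7 of 12 samples were closest to their own number. Among siNeg, siNeg PE and siSlc39a2 PE, replicates 1 correlated at 0.23 to 0.32 and replicates 3 at 0.12 to 0.21, while replicates 2 reached at most 0.05. With siSlc39a2 the same-numbered pairs ran from -0.09 to 0.22. Pairing by number was thus not settled, and the replicate block was run as an alternative only. With the replicate block, Hmox1 was called lower with PE in siNeg cells (-0.21, adjusted p = 0.0216), Sod1 higher after knockdown (0.20, adjusted p = 0.0366) and the Txnrd1 interaction passed (-0.27, adjusted p = 0.0385). The block also raised the share of all genes called in these tests. It was 57.5%, 56.9% and 7.54% with the block, and 49.7%, 49.2% and 3.61% without it.

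Of 97 values of pathway genes that the naming rule allowed, 80 kept their call in every alternative run for them.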
